A study of Mus musculus with 24 samples.

Results

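Vascular endothelial cells line every vessel, and in the eye their densest bed is the choriocapillaris, the sheet of wide capillaries beneath the retinal pigment epithelium. Its endothelium is fenestrated: thin pores spanned by a protein diaphragm let plasma pass towards the pigment epithelium and the photoreceptors. Focal laser burns that break the membrane above it are used in mice to make new vessels grow out of the choroid, a model of neovascular macular degeneration. In total, 38 genes that are mainly known from such endothelium were followed here through all 24 RNA-sequencing libraries. They were taken by symbol from a list of vascular endothelial genes, and all 38 were found among the 56065 genes of the table.

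The libraries were made from total RNA of mouse choroid tissue. Mice were wild type or Ceacam1-/-, with a deletion of exons 1 and 2 of Ceacam1 in the whole body, so that no cell type was singled out. Wild type animals were littermates, on the C57BL/6J background and free of the rd8 retinal mutation, and animals of both sexes, 6 to 8 weeks old, were used. The lasered groups received 6 spots per eye from a frequency-doubled Nd:YAG laser at 150 mW, 200 µm and 100 ms, and the time from laser to tissue is not given in the sources used here. There were 4 libraries of wild type without laser (numbers 21, 22, 26 and 27), 4 of Ceacam1-/- without laser (23, 24, 25 and 28), 9 of wild type with laser (1, 2, 3, 11, 12, 13, 16, 17 and 19) and 7 of Ceacam1-/- with laser (4, 5, 6, 7, 14, 15 and 18). The labels give neither the sex of a library nor whether it came from 1 animal, so p-values measure the spread between these libraries only. Values were normalized counts, that is, estimated reads per gene as normalized by the authors with DESeq2. They summed to between 23704346 and 35094410 per library, with group medians from 25282017 to 26530696.

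Ceacam1 itself, an adhesion receptor of endothelium, epithelium and leukocytes, was read first as a check of the labels. Without laser it was 958, 5027, 1242 and 4596 in wild type libraries 21, 22, 26 and 27. In Ceacam1-/- libraries 23, 24, 25 and 28 it was 405, 505, 508 and 1171. With laser, wild type ranged from 774 to 8367 with a median of 996. Ceacam1-/- libraries with laser ranged from 67.8 to 905. The groups were lower in Ceacam1-/- but overlapped, since library 28 exceeded wild type library 21, and library 15 exceeded the lowest lasered wild type library. The limma log2 fold change was -1.95 (adjusted p = 0.999) without laser and -2.17 (adjusted p = 0.104) with laser. The exact permutation p was 0.0571 without laser and 0.00035 with laser, both unadjusted and among 36 such tests. The Ceacam1 value covers the whole gene, exons outside the deletion included, so it cannot by itself check the deletion. The paper reports a separate check, by Ceacam1 mRNA in retina and choroid and by staining of the protein. Genes of the surface epithelium, which also carries Ceacam1, summed to 326591 in library 15 and 284303 in library 28, the highest sums in their groups. Wild type libraries ranged from 26.2 to 123296 with laser and from 40.9 to 265039 without. The wild type libraries highest in Ceacam1, 19 with laser and 22 without, were also those with the highest surface epithelium sums. Their part in the Ceacam1 values was not tested.

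Libraries differed in which tissues they held, and 5 stood apart before any comparison was made. A list of 8 photoreceptor genes had a mean log2 value of 15.0 to 15.9 in libraries 14, 15 and 18 (Ceacam1-/- with laser), 21 (wild type without laser) and 23 (Ceacam1-/- without laser). The other 19 libraries reached at most 13.9. No lasered wild type library was among the 5. The summed value of the 38 endothelial genes was 23246, 45729 and 32572 in libraries 14, 15 and 18, against 84306, 98601, 108421 and 87451 in libraries 4, 5, 6 and 7 of the same group. It was 49173 in library 21 and 44971 in library 23, and the highest sum, 124272, was in lasered wild type library 17. In Ceacam1-/- with laser, the 3 photoreceptor-rich libraries lay below all 4 others in 32 of 38 endothelial genes. The exceptions were Sox7, Podxl, Tal1, Gpihbp1, Apln and Car4. Library 23 lay below its 3 companions in 34 of 38, and library 21 in 21 of 38. Pigment epithelium genes, led by transthyretin (Ttr), were lowest in libraries 14, 15 and 18 too, with sums of 63238, 49391 and 36815. In bulk tissue, fewer endothelial cells and less of their RNA per cell cannot be told apart. For each comparison the count of genes called, the count above 0 and the median are given with and without these 5 libraries, a choice made after the data were seen.

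**Figure D1:**
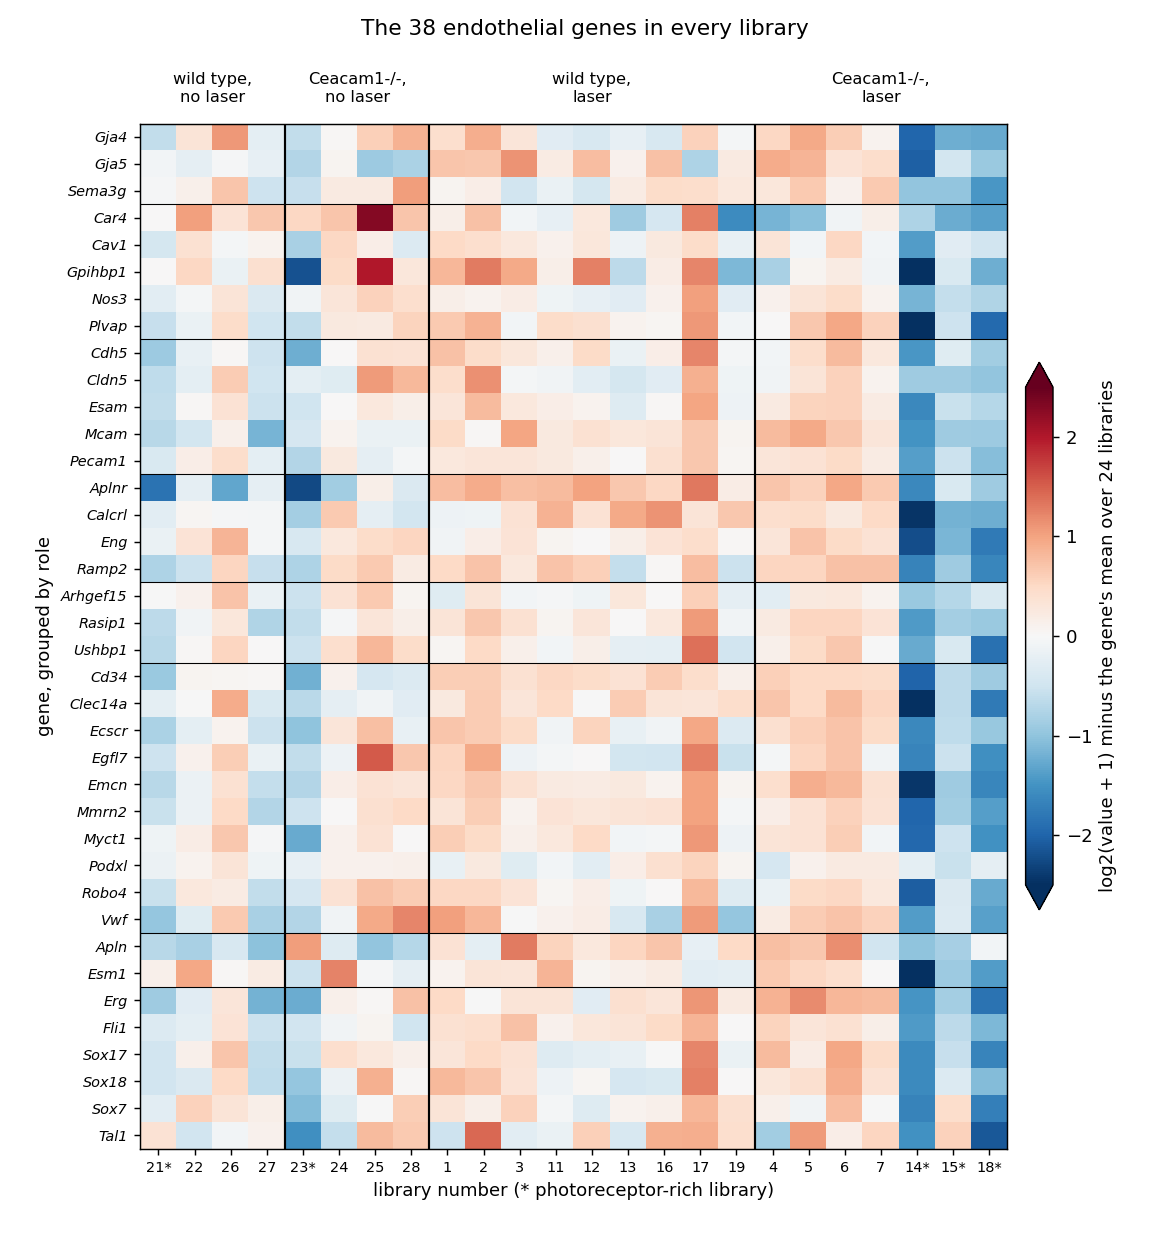
Log2 normalized counts of the 38 endothelial genes (rows) in the 24 libraries (columns, by group). Libraries 14, 15 and 18 of lasered Ceacam1-/- mice, library 21 and library 23 are low across most rows.

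**Figure D2:**
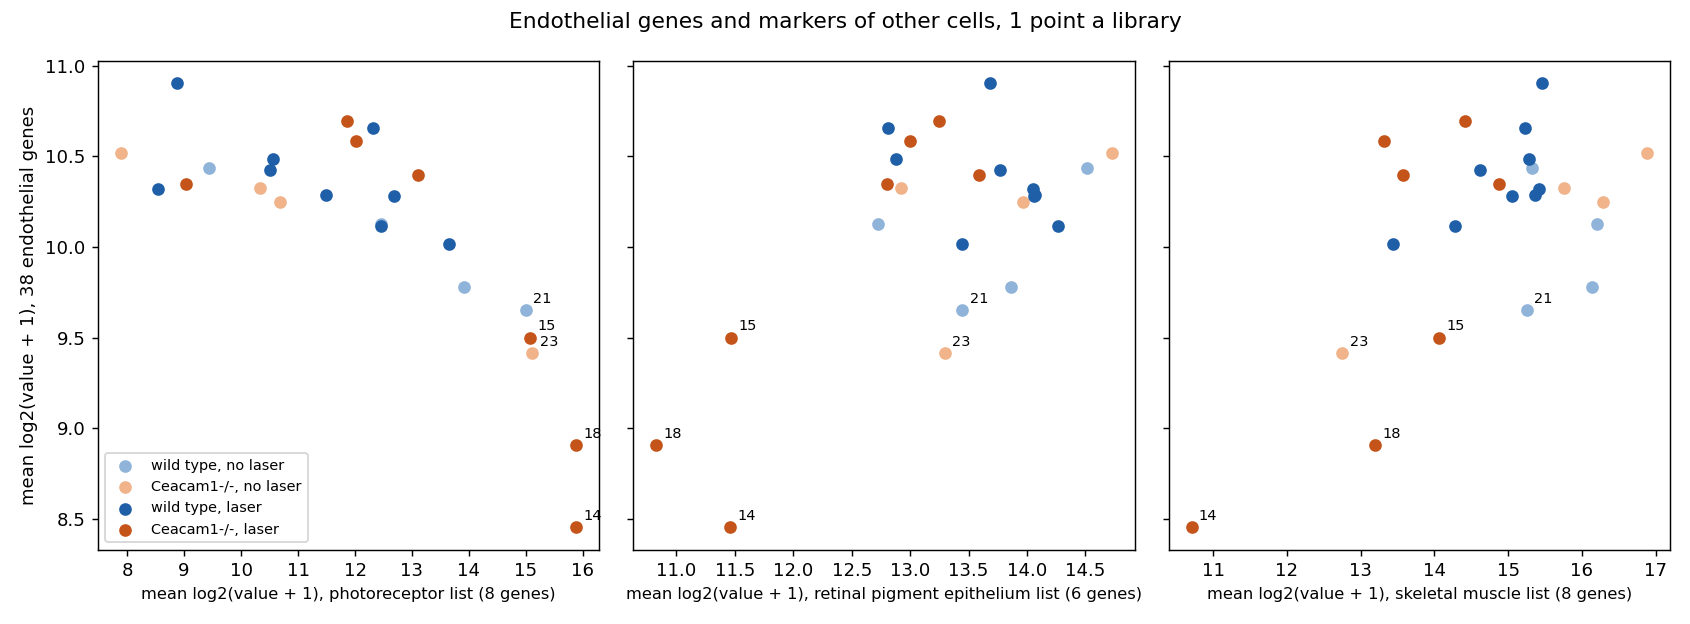
Mean log2 value of the 38 endothelial genes in each library against the mean log2 value of photoreceptor, pigment epithelium and skeletal muscle genes. The 5 libraries with photoreceptor means of 15.0 or more have the lowest endothelial means, 8.45 to 9.65.

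The level of each gene in the choroid without injury was compared per kilobase of transcript over the 4 wild type libraries without laser. The diaphragm protein Plvap (chr8:71948674-71964506, minus strand, GRCm39) stood highest at 3217 normalized counts per kilobase. It was followed by the secreted matrix protein Egfl7 at 2557, caveolin-1 (Cav1), the coat protein of caveolae, at 2271, and the sialomucin Cd34 at 1700. Ramp2, the partner that makes Calcrl an adrenomedullin receptor, was at 1550 and the sialomucin Emcn at 1457. The adhesion molecule Pecam1 (chr11:106543689-106641454, minus strand) ranked 12th at 650, and VE-cadherin (Cdh5, chr8:104828231-104871143, plus strand), the junction protein of all endothelium, ranked 25th at 270. The lower end held the apelin receptor Aplnr at 122, the membrane carbonic anhydrase Car4 at 100, the ETS factor Erg at 65.1, the peptide apelin (Apln) at 43.6 and the haematopoietic and endothelial factor Tal1 at 12.4. Defining endothelial genes were thus above 0 in all libraries, and none of the 38 was at 0 anywhere. Gene models of some members overlap others, such as Plvap with Gtpbp3 and Ramp2 with Vps25, so that reads there may be shared. Car4 and Apln overlap none.

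**Figure D3:**
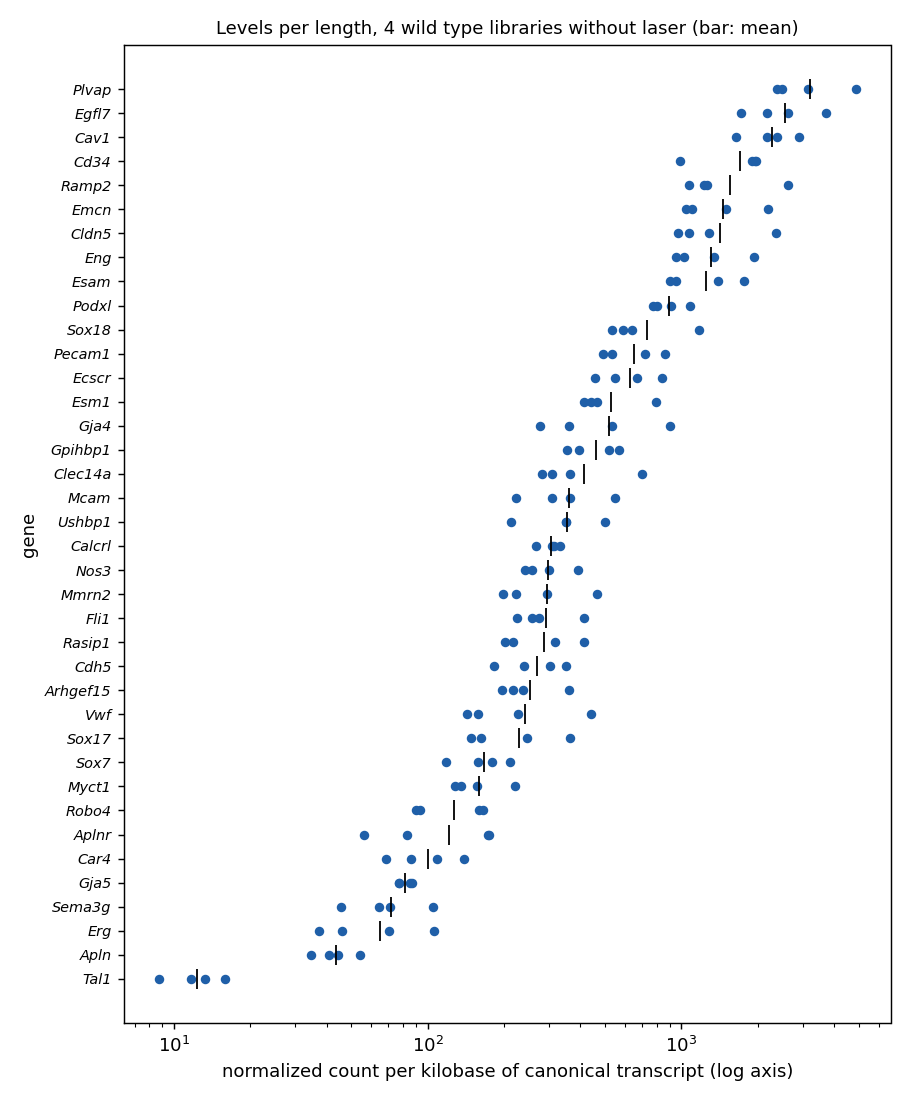
Normalized counts per kilobase of transcript of the 38 genes in the 4 wild type libraries without laser, on a log axis, ordered by mean. Points are libraries, and the means run from 3217 for Plvap to 12.4 for Tal1.

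Endothelial promoters are known for binding sites of ETS factors, the family of Erg and Fli1, and 21 of the 38 genes had a promoter in the RefSeq table (build GRCm38.p6), which holds 250 bases before and 50 after each start. The letters CAGGAAG, a short form of an ETS site searched on both strands, were in 9 of these 21 genes (42.9%) and in 14.8% of all 27025 genes of the table. CCGGAAG was in 1 of 21 (4.76%, against 9.93% of all genes). The SOX-type letters ACAAAG were in 23.8% against 21.02%, ACAATG in 9.52% against 14.3%, and the GATA-type letters AGATAA in 14.3% against 12.7%. These are matches of letters and not measured binding. The stretches that hold an ETS-type match were located on GRCm39 by exact match and are shown so that the motif can be read in its context. Capitals mark the match, which reads CTTCCTG where the motif lies on the opposite strand. They are those of Apln, Cd34, Erg, Robo4, and the single CCGGAAG match in Car4.
Apln, chrX:47123827-47123853, minus strand: ccctctccctCTTCCTGcctctcttcc
Cd34, chr1:194620977-194621003, plus strand: tacacagtggCTTCCTGccacacttaa
Erg, chr16:95260231-95260257, minus strand: atagaaacctCTTCCTGccattggctg
Robo4, chr9:37313208-37313234, plus strand: gagggccaggCAGGAAGcatccgtttc
Car4, chr11:84848370-84848396, plus strand: gctcatctttCTTCCGGaatcagttaa
The matches in Apln, Cd34 and Erg lie 113, 142 and 40 bases before the start and outside any annotated exon. Those in Robo4 and Car4, 50 and 200 bases before the RefSeq start, lie in an exon of the GENCODE annotation. Emcn, Egfl7, Calcrl, Rasip1 and Ushbp1 held the remaining CAGGAAG matches.

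The first comparison asked what laser injury did to endothelial transcripts in wild type mice. The apelin receptor Aplnr (chr2:84966569-84970267, plus strand, 1 exon), which marks sprouting and venous endothelium, rose. It was 208, 648, 307 and 641 in libraries 21, 22, 26 and 27 without laser. With laser it ranged from 861 to 1872 with a median of 1285. The groups did not overlap. Its log2 fold change was 1.67 (SE 0.43, limma adjusted p = 0.0243), on a scale of log2(value + 1). The exact permutation p was 0.0028, the smallest possible with 4 against 9 libraries and unadjusted, 1 of 36 such tests. Aplnr was the only one of the 38 genes called in this comparison, against 5.28% of the 19950 genes tested (4.23% higher and 1.05% lower). At an unadjusted p under 0.05 there were 4 of 38, against 20.0% of all genes. In total 32 of 38 had a fold change above 0 (42.1% of all genes), with a median of 0.36 against -0.10 over all genes. The count and median were 28 of 38 and 0.26 without the photoreceptor-rich libraries, 24 of 38 and 0.10 with a photoreceptor covariate, 24 of 38 and 0.11 with scaling to other endothelial genes, 37 of 38 and 0.71 with a muscle covariate, and 36 of 38 and 0.58 without library 26. In the same comparison photoreceptor and muscle genes lay below 0, with medians of -1.48 and -0.94 (8 of 8 genes each). Myeloid and fibroblast genes lay above 0, with medians of 2.11 (8 of 8) and 1.11 (5 of 5). Without the photoreceptor-rich libraries these 4 medians were -0.70, -1.01, 1.82 and 0.89. Their part in the endothelial values was not tested beyond the covariates. Endothelial genes without overlap between the groups were Aplnr, Apln and Cd34, all 3 higher, against 4.50% of all genes that were higher and 1.75% that were lower without overlap. The call depended on single libraries: without library 21 the fold change of Aplnr was 1.35 (limma adjusted p = 0.145) and without library 26 it was 1.54 (limma adjusted p = 0.0743).

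Its ligand apelin (Apln, chrX:47114019-47123775, minus strand) is made by the leading cells of vessel sprouts. It was 142, 131, 172 and 111 without laser and 192 to 563, median 323, with laser. The groups did not overlap, but the log2 fold change of 1.15 (SE 0.38) had a limma adjusted p of 0.0828. Mcam (CD146), an adhesion receptor of endothelium and pericytes, was 1033, 1213, 1825 and 742 without laser and 1688 to 3316, median 2073, with laser. Its groups overlapped, through library 26, and its log2 fold change was 0.92 (limma adjusted p = 0.134). Cd34 was 2441, 4854, 4795 and 4693 without laser and 5012 to 7146 with laser, and its log2 fold change was 0.65 (limma adjusted p = 0.309), or 0.41 without the photoreceptor-rich libraries (limma adjusted p = 0.0523).

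The general endothelial genes Pecam1, Cdh5 and Plvap had positive values in this comparison and were not called. Pecam1 was 1798, 2630, 3168 and 1963 without laser and 2363 to 3717, median 2808, with laser. Its log2 fold change was 0.27 (SE 0.28, limma adjusted p = 0.603), and it ran from 0.15, without library 21, to 0.42, without library 26. Cdh5 was 736 to 1417 without laser and 1232 to 3259 with laser, a fold change of 0.76 on the log2 scale (limma adjusted p = 0.217), or 0.59 without the photoreceptor-rich libraries, and both genes overlapped between groups. Plvap ranged from 4985 to 10181 without laser and from 7067 to 15720 with laser. Its log2 fold change was 0.58 (limma adjusted p = 0.520), or 0.46 without those libraries. By role, the medians were 0.43 for the 5 junction genes, 0.43 for the 10 surface and secreted proteins, 0.42 for the 6 transcription factors and 0.59 for the 4 receptors. They were 0.16 for the 3 regulators of small GTPases, 0.22 for the 5 capillary genes, -0.01 for the 3 arterial genes Gja4, Gja5 and Sema3g, and 0.49 for the sprout genes Apln and Esm1. Without the photoreceptor-rich libraries the 8 medians, in the same order, were 0.29, 0.26, 0.44, 0.48, -0.06, 0.10, -0.04 and 0.46. The lowest values belonged to Car4 at -0.59 (limma adjusted p = 0.446), the sprout proteoglycan Esm1 at -0.17, and the GTPase regulator Arhgef15 at -0.11. Without the 5 photoreceptor-rich libraries, 3 genes were called, all higher: Aplnr (1.35, limma adjusted p = 0.00138), Apln (1.16, limma adjusted p = 0.0272) and Mcam (0.88, limma adjusted p = 0.0190), against 8.39% of all genes (5.76% higher and 2.63% lower). With array weights, which give aberrant libraries less weight, 16 were called higher and 1 lower, against 32.6% of all genes. A muscle covariate gave 10 (17.2% of all genes), the wild type libraries alone 5 (11.6%), a photoreceptor covariate 1 (6.53%), scaling to other endothelial genes 1 (3.40%) and a covariate of Y-linked genes 0 (3.97%), under which Aplnr stood at 1.60 (limma adjusted p = 0.0505).

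**Figure D4:**
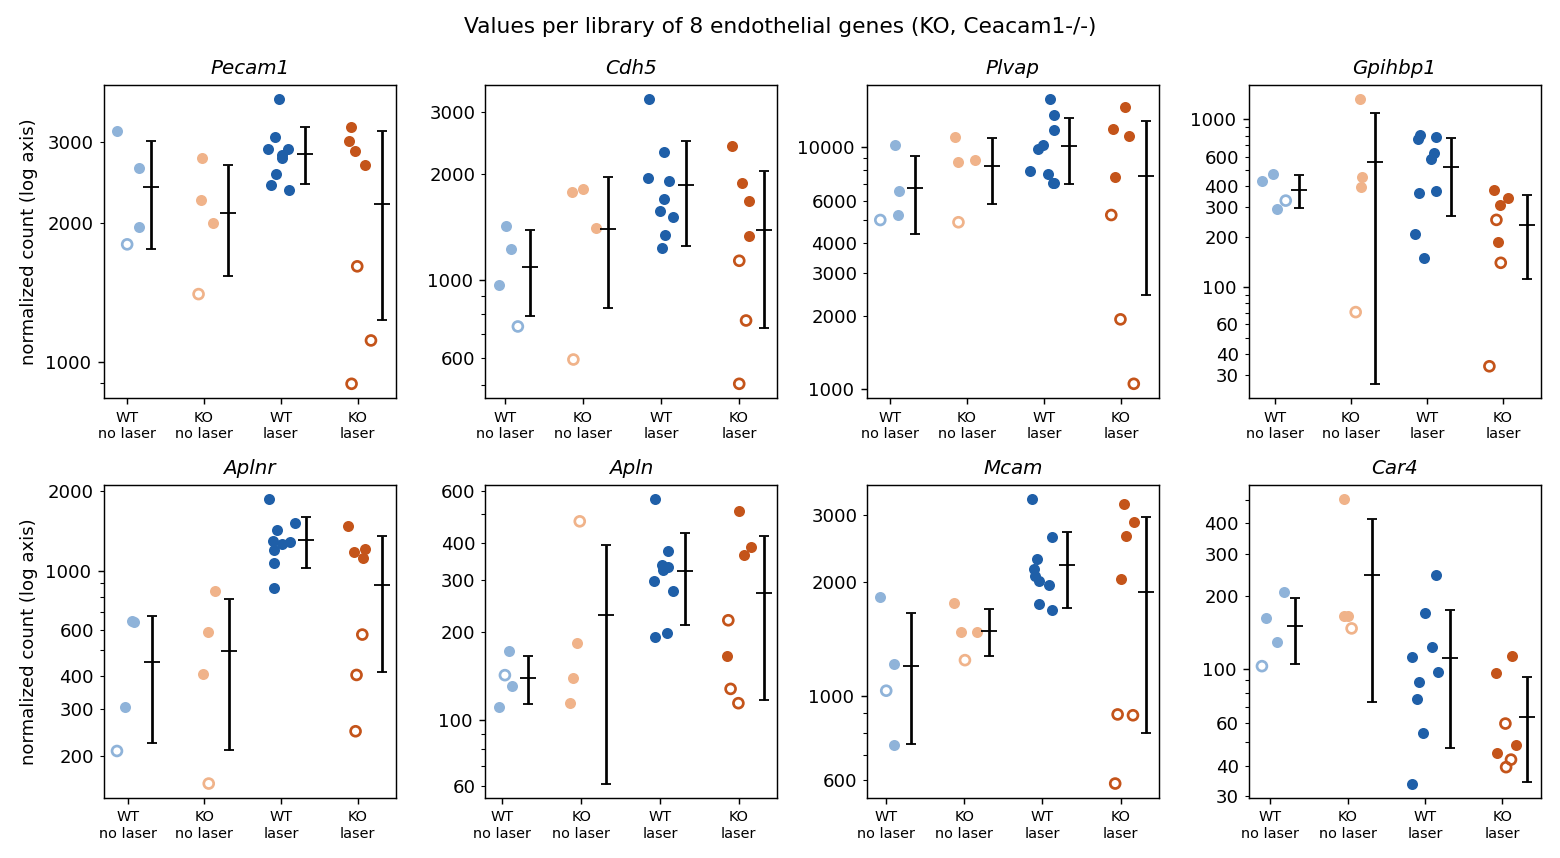
Normalized counts of Pecam1, Cdh5, Plvap, Gpihbp1, Aplnr, Apln, Mcam and Car4 in each library by group, with mean ± SD as bars and the 5 photoreceptor-rich libraries as open circles. Aplnr is higher in all 9 lasered wild type libraries, at 861 or more, than in the 4 without laser, and Car4 is at most 113 in lasered Ceacam1-/- mice.

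In Ceacam1-/- mice, laser was compared with no laser in the same way. The carbonic anhydrase Car4 (chr11:84848020-84856879, plus strand, 8 exons), a known marker of capillary endothelium including the choriocapillaris, fell. It was 148, 165, 505 and 166 in libraries 23, 24, 25 and 28 without laser. With laser it was 45.0, 48.9, 96.5, 113, 59.7, 42.4 and 39.5 in libraries 4, 5, 6, 7, 14, 15 and 18. All 7 lasered libraries lay below all 4 without laser. The log2 fold change was -1.84 (SE 0.44, limma adjusted p = 0.0227), and the exact permutation p was 0.00606, the smallest possible with 4 against 7 and likewise unadjusted, 1 of the 36. Car4 was the only gene of the 38 called, against 3.72% of the 19950 genes tested (2.07% higher, 1.65% lower), and the only one without overlap between the groups, against 0.962% of all genes lower and 1.17% higher without overlap. Without the photoreceptor-rich libraries, which left 4 Ceacam1-/- libraries with laser and 3 without, its log2 fold change was -1.76 (limma adjusted p = 0.0376). The call, though not the direction, depended on single controls: the log2 fold change was -1.96 without library 24 (limma adjusted p = 0.0528) and -1.42 without library 25, the highest (limma adjusted p = 0.174). Skeletal muscle and pigment epithelium genes were lower in the same comparison, with medians of -2.07 (8 of 8 below 0, 7 at an unadjusted p under 0.05) and -1.61 (6 of 6 below 0, 5 at an unadjusted p under 0.05), and none of them was called. Atp2a1 was the most abundant muscle gene. Muscle sums were 63621, 752937 and 541864 in libraries 23, 24 and 28 without laser, highest in library 25, and 15220 to 279252 with laser. With the muscle genes as a covariate Car4 was at -1.28 (limma adjusted p = 0.180), with scaling to other endothelial genes at -1.50 (limma adjusted p = 0.0538), and with the Ceacam1-/- libraries alone at -1.84 (limma adjusted p = 0.140). Without the photoreceptor-rich libraries, 7 of 8 muscle genes fell (median -2.40), beside Car4, against 6.26% of all genes called lower. Their part in the Car4 value was not tested beyond the covariate.

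Aplnr was 157, 409, 836 and 588 in Ceacam1-/- libraries 23, 24, 25 and 28 without laser. With laser it was 1211, 1115, 1480 and 1182 in libraries 4, 5, 6 and 7, and 247, 574 and 404 in libraries 14, 15 and 18. The first 4 lay above all unlasered libraries, while the photoreceptor-rich 3 lay within their range. The log2 fold change was 0.83 (SE 0.45, limma adjusted p = 0.311). Apln was 473, 183, 115 and 139 without laser, with its highest value in photoreceptor-rich library 23, and 114 to 512 with laser, a fold change of 0.28 on the log2 scale (limma adjusted p = 0.731). Pecam1 was 1402, 2766, 1998 and 2249 without laser. It was 2872, 3009, 3241 and 2672 in lasered libraries 4, 5, 6 and 7, and 895, 1611 and 1112 in libraries 14, 15 and 18. Its log2 fold change was -0.04 (limma adjusted p = 0.945), with libraries 4, 5 and 6 above all controls and libraries 14 and 18 below all of them. Cdh5 and Plvap had log2 fold changes of -0.05 and -0.54 (limma adjusted p = 0.951 and 0.587), and the arterial connexin Gja5 had 0.47 (limma adjusted p = 0.569). Robo4, a guidance receptor that stabilizes endothelium, was at -0.69 (limma adjusted p = 0.318), or -0.41 without library 14 alone, and the nitric oxide synthase Nos3 at -0.52 (limma adjusted p = 0.298). Cdh5, Plvap, Robo4 and Nos3 were at 0.11, 0.22, -0.30 and -0.19 without the photoreceptor-rich libraries. At an unadjusted p under 0.05 there was 1 of 38, Car4, against 20.0% of all genes. In all, 32 of 38 were below 0, with a median of -0.22 (0.02 over all genes, of which 51.2% were above 0), but with array weights, a photoreceptor covariate, a muscle covariate or scaling to other endothelial genes 27, 23, 32 and 21 of 38 were above 0.

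Without the 5 photoreceptor-rich libraries the same comparison had 26 of 38 genes above 0, with a median of 0.13. Then 6 genes were called higher, and Car4 was called lower, against 14.9% of all genes called (8.66% higher and 6.26% lower). The 6 were Aplnr (1.08, limma adjusted p = 0.0123), Apln (1.21, limma adjusted p = 0.0303), Gja5 (1.19, limma adjusted p = 0.0253), the lectin-like Clec14a (0.82, limma adjusted p = 0.0175), Mcam (0.77, limma adjusted p = 0.0498) and Cd34 (0.74, limma adjusted p = 0.00206). Array weights called 1 higher and 1 lower (17.8% of all genes), and so did a photoreceptor covariate (4.47%). A muscle covariate and scaling to other endothelial genes called 1 higher and none lower (2.53% and 4.56%). The gene called higher was Aplnr in each of these 4. The Ceacam1-/- libraries alone called none (0.187%), and the Y-linked covariate only Car4, lower (3.18%). Removing library 14 alone brought the median of the 38 genes to 0.0008, and removing the unlasered library 23 alone brought it to -0.52. The direction of most of the 38 genes in these mice thus turned with the libraries included. Lasered Ceacam1-/- mice without libraries 14, 15 and 18 were 4 libraries.

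**Figure D5:**
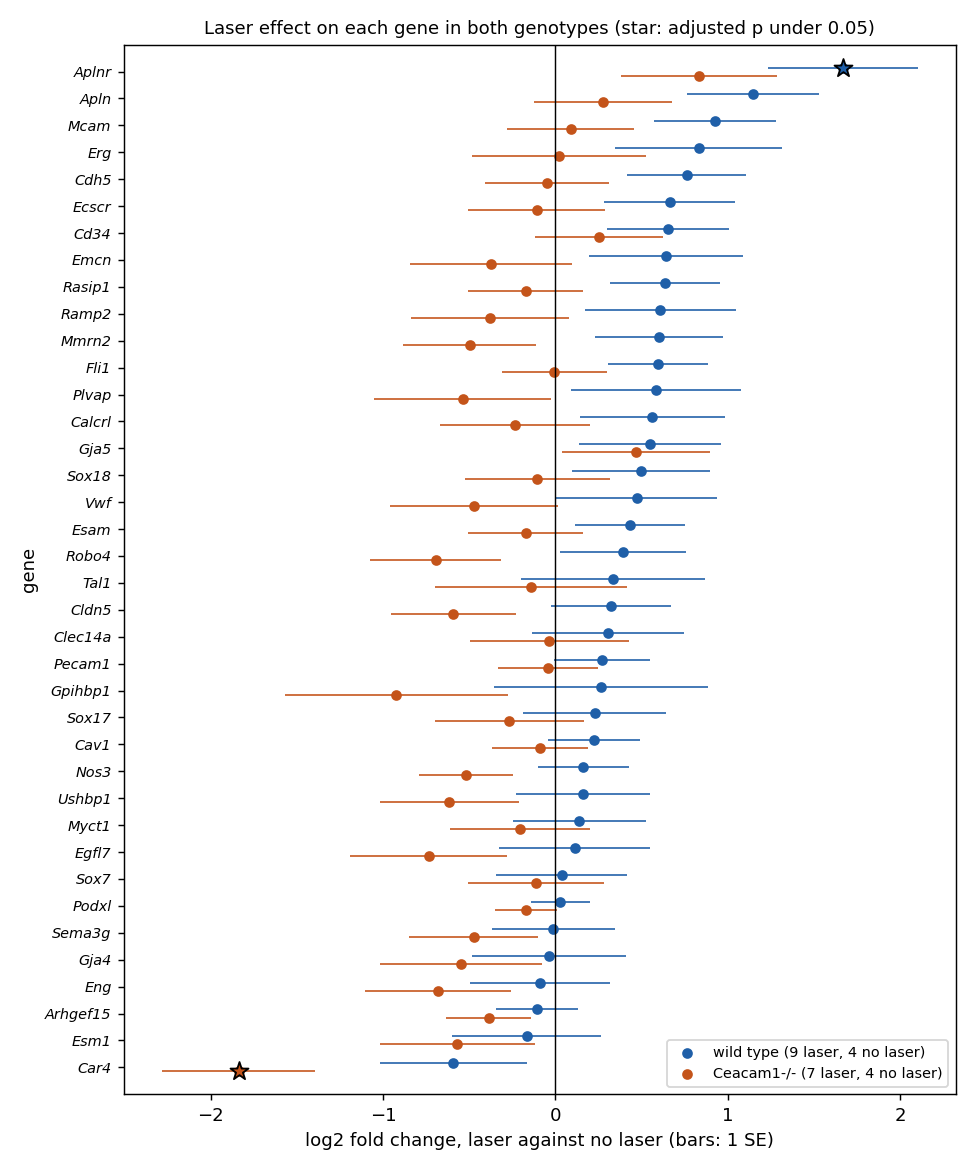
Log2 fold change ± 1 SE of laser against no laser for each of the 38 genes in wild type and Ceacam1-/- mice, with stars at a limma adjusted p under 0.05. All libraries are included. Stars stand at Aplnr in wild type (1.67) and Car4 in Ceacam1-/- (-1.84), and most Ceacam1-/- values lie below 0. Without the 5 photoreceptor-rich libraries, which is not drawn, 26 of 38 Ceacam1-/- values were above 0.

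The response to laser was then compared between the genotypes as an interaction. No gene was called of 38 or of all 19950 tested (limma, 0%, and 6.22% at an unadjusted p under 0.05, of which 0 among the 38). All 38 differences, Ceacam1-/- minus wild type, were below 0, with a median of -0.73 against 0.01 over all genes, of which 50.5% were above 0. Lists of other cells lay below 0 as well, with medians of -0.84 for pericytes (8 of 8 genes), -0.74 for myeloid cells (8 of 8), -1.49 for pigment epithelium (6 of 6) and -1.14 for muscle (8 of 8), while photoreceptor genes were at 3.69. Of these lists only photoreceptor and muscle genes were used as covariates, and the part of the others in the endothelial values was not tested. The 38 differences ran from -1.25 for Car4 to -0.08 for Gja5, and that of Plvap was -1.12 (limma adjusted p = 0.640). Mmrn2, a matrix ligand of Clec14a, had -1.10 and Robo4 -1.09. Without the photoreceptor-rich libraries these 3 differences were -0.24, -0.44 and -0.56, and without library 14 alone that of Plvap was -0.72. With the 5 photoreceptor-rich libraries left out, 11 of 38 were above 0, the median was -0.11 and limma called none. Array weights, a covariate of photoreceptor or muscle genes, or scaling to other endothelial genes gave 6, 23, 8 and 14 of 38 above 0. The calls of Aplnr in wild type and Car4 in Ceacam1-/- are thus not shown to differ between genotypes.

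Ceacam1-/- and wild type mice were compared without laser to ask whether the deletion alone altered the endothelial genes. None of the 38 was called by limma, nor any of the 20057 genes tested (0%), and at an unadjusted p under 0.05 there were 0 of 38 and 1.53% of all. Ceacam1 itself was not called either, so the lack of calls does not show that the deletion left genes unchanged. The paper compared 4 wild type with 4 Ceacam1-/- choroid samples by DESeq2 with sex as a covariate, and reported differentially expressed genes. Fold changes were above 0 for 23 of 38 and 47.9% of all genes, with a median of 0.17, but for 12 of 38 (median -0.10) with a photoreceptor covariate. Without the photoreceptor-rich libraries 21 and 23 they were above 0 for 28 of 38 with a median of 0.35, and none was called by limma (0 at an unadjusted p under 0.05). With array weights 31 of 38 were above 0 with a median of 0.40, 12 had an unadjusted p under 0.05 (13.8% of all genes), and none was called. The median also moved with single libraries, from 0.02 without library 25 to 0.44 without library 23. Lists of other cells lay on both sides of 0. Photoreceptor genes had a median of -1.69 (8 of 8 below 0) and surface epithelium genes one of 1.98 (5 of 5 above 0). Without the photoreceptor-rich libraries these medians were -2.29 and 0.41. Their part in the endothelial values was not tested beyond the photoreceptor covariate. The values of the 38 genes ran from -0.46 for Gja5 to 0.69 for the clotting carrier Vwf. Pecam1 had -0.19 ± 0.27, Cdh5 0.28 ± 0.38, Plvap 0.30 ± 0.32 and Car4 0.54 ± 0.44 (log2 fold change ± SE, n = 4 and 4). That of Car4 was 0.13 without library 25. No gene of the 38 was free of overlap, against 0.922% of all genes higher and 0.434% lower. With 4 against 4 libraries, an exact permutation p cannot go below 0.0286. All limma adjusted p of the 38 genes were 0.999 or more.

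With laser, Ceacam1-/- and wild type were compared in 7 and 9 libraries, which also enter the laser comparisons. None of the 38 was called, against 0.0202% of 19757 genes (limma, 0.0101% higher and 0.0101% lower), and 7 of 38 against 22.7% of all had an unadjusted p under 0.05. With all libraries, all 38 fold changes were below 0 (median -0.52, with 51.2% of all genes above 0), but without the photoreceptor-rich ones, which here are only Ceacam1-/- libraries, 26 of 38 were above 0 (median 0.13) and none was called. Without library 14 alone the median was -0.30. Other lists were also below 0 with all libraries, with medians of -0.72 for pericytes, -0.52 for myeloid cells, -1.48 for pigment epithelium, -1.41 for muscle and -0.42 for fibroblasts, all their genes included, and photoreceptor genes were at 2.02. These medians were 0.02, 0.18, -0.53, -0.76, 0.88 and 0.23, in the same order, without the photoreceptor-rich libraries. The lowest value was that of Gpihbp1, the capillary anchor of lipoprotein lipase (chr15:75468474-75471331, plus strand). It was 149 to 808, median 581, in wild type with laser, and 187, 341, 378, 307, 33.8, 252 and 140 in Ceacam1-/- libraries 4, 5, 6, 7, 14, 15 and 18. The highest Ceacam1-/- library was below the wild type median, and the groups overlapped. Its log2 fold change was -1.24 (SE 0.48, limma adjusted p = 0.167), and -0.61 without the 3 libraries (limma adjusted p = 0.747). The adrenomedullin receptor Calcrl had -0.95 and Fli1 -0.66 (limma adjusted p = 0.178 and 0.177), against -0.09 and -0.05 without the photoreceptor-rich libraries. Calcrl was at -0.62 without library 14 alone. No gene of the 38 was free of overlap, against 0.0759% of all genes higher and 0.0709% lower. Libraries 4, 5, 6 and 7 lay within the lasered wild type range for 35, 34, 35 and 36 of 38 genes. Libraries 14, 15 and 18 lay below that range for 36, 29 and 35 of 38.

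Other lists were read beside the 38 genes. Of 15 further pan-endothelial genes, led by Heg1 and Ptprb, none was called in either laser comparison, nor was any of the lymphatic, barrier endothelium, pericyte, pigment epithelium, photoreceptor, muscle, lens, surface epithelium or erythroid lists. In wild type, 3 of 12 further sprouting genes rose, against 4.23% of all genes called higher: the urokinase receptor Plaur (2.95, limma adjusted p = 6.27e-05), the netrin receptor Unc5b (1.24, limma adjusted p = 0.0164), which is also on the arterial list, and the chemokine receptor Cxcr4 (1.24, limma adjusted p = 0.0357). The adhesion molecule Vcam1, of the venous list, rose too (1.57, limma adjusted p = 0.0251). In Ceacam1-/- mice, where 2.07% of all genes were called higher, 1 of the 12 rose, Plaur (1.94, limma adjusted p = 0.0116), and so did E-selectin of the venous list (Sele, 2.29, limma adjusted p = 0.0444). Genes of other cells moved with laser in the same libraries: 7 of 8 myeloid genes rose in wild type (4.23% of all genes) and 4 of 8 in Ceacam1-/- (2.07% of all genes). C1qb and C1qa, the most abundant genes of that list, were called in wild type. In Ceacam1-/- they were not called with all libraries, but both were called higher without the photoreceptor-rich libraries. No myeloid gene was called in the interaction, so these calls are not shown to differ between genotypes. Of 6 megakaryocyte and platelet genes 4 could be tested, and 1 was called in each genotype. It was Pf4, higher in wild type and in Ceacam1-/- (2.15 and 1.77, limma adjusted p = 0.00192 and 0.0200). All 4 were above 0 in wild type, and in Ceacam1-/- 3 were above 0 and 1 below (-1.32). Summed myeloid values were 5186 to 10442 without laser and 19730 to 38518 with laser in wild type, without overlap. In Ceacam1-/- they were 7719 to 9462 without laser and 6253 to 33071 with laser and overlapped, through photoreceptor-rich library 18. Of 5 fibroblast genes, 1 rose in each genotype, the matrix proteoglycan Lum (1.90 and 2.11, limma adjusted p = 0.0309 and 0.0310), and the medians of the list were 1.11 and 1.23. Plaur and Cxcr4 are also made by leukocytes, and the part of these cells in the values was not tested. Without the photoreceptor-rich libraries, 5 of the 12 sprouting genes were called higher in wild type (5.76% of all genes) and 4 in Ceacam1-/- (8.66% of all genes). So were 7 of 8 myeloid genes in each genotype, Sele, Selp and Vcam1 of the 7 venous genes in each, 3 and 5 of 5 fibroblast genes, and Pf4 in each. Of the lists with no call above, Cd93 of the 15 pan-endothelial genes and Mfsd2a of the barrier list were then called higher and the muscle gene Atp2a1 lower in wild type, and 7 of 8 muscle genes were called lower in Ceacam1-/-. These names were chosen after their values were seen.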

How the data were processed

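The authors' processing, per the labels and methods, ran FastQC 0.11.5, Salmon 1.10.3 and DESeq2 1.44.0 on genome build GRCm39 with GENCODE annotation vM35. The deposited signal values are DESeq2-normalized counts with decimals, and whole reads could not be recovered from them (31.6 to 73.9% of low values were near whole multiples, tolerance 5%). No count model was therefore used. The study's sex covariate is not in the labels. Values were taken as log2(value + 1), genes with a mean of at least 10 were kept, and groups were compared with limma 3.58.1 in R 4.3.3 (trended, two-sided, Benjamini-Hochberg over all tested genes, threshold 0.05). Laser comparisons and the interaction used all 24 libraries, and the genotype comparisons only their own groups. Exact permutation tests used Python 3.11.15 and scipy 1.17.1. Positions follow annotation vM39. Scripts were tested on simulated data. The 38 members and all lists were chosen with earlier results of these data known. Genes named were Pecam1, Cdh5, Plvap and Car4, members called, and in each laser comparison the 3 of lowest p in each direction, with the leading genes of other comparisons and the overlapping or extreme ones chosen after their values were seen. Alternatives were other pseudocounts, filters and scalings, array weights, covariates, and leaving out libraries.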

Additional observations from a re-analysis of the deposited data

Results flagged for a closer look

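In 5 of 152 sets of a gene and a group, a library stood far from the rest of its group by Dixon's ratio, the gap to the nearest library over the whole range of log2(value + 1), against about 1 in 20 by chance. Podxl was lowest in library 23 of Ceacam1-/- without laser (4027 against the next value of 4990, ratio 0.932). Cd34 was lowest in library 21 of wild type without laser (2441 against 4693, ratio 0.951). Gpihbp1 was lowest in library 14 of Ceacam1-/- with laser (33.8 against 140, ratio 0.585). These 3 are among the photoreceptor-rich libraries. Nos3 was highest in library 17 of wild type with laser (2629 against 1463, ratio 0.643), the library with the highest endothelial sum. Car4 was highest in library 25 of Ceacam1-/- without laser (505 against 166, ratio 0.905), 1 of the 2 libraries, with library 24, without which its fall with laser was no longer called.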

How the results depend on the processing

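No paired analysis was possible because library numbers are unique and groups share no replicate numbers. In wild type, laser called 16 members higher and 1 lower with array weights, 10 higher with a muscle covariate, 5 with only the compared libraries, 3 without the photoreceptor-rich libraries (chosen after seeing the data), 0 with a Y-linked covariate, and 0 to 2 with 1 library left out. In Ceacam1-/- it called 1 higher with array weights, a photoreceptor covariate, a muscle covariate or scaling to other endothelial genes, and 6 without the photoreceptor-rich libraries. Car4 as the 1 lower call became 0 with a muscle covariate, endothelial scaling or only the compared libraries, and 0 to 1 with 1 library left out. Interaction and genotype comparisons called 0 members by limma.

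Directions turned as follows (log2 fold changes). In wild type, Arhgef15 was 0.030 with array weights and 0.053 with the muscle covariate, Esm1 was 0.19 with the latter, and with 1 library left out they ran from -0.21 to 0.077 and from -0.27 to 0.046. In Ceacam1-/-, with array weights, photoreceptor covariate, muscle covariate, endothelial scaling and without the photoreceptor-rich libraries, Pecam1 was 0.14, 0.30, 0.50, 0.29 and 0.34, and Cdh5 was 0.26, 0.41, 0.75, 0.29 and 0.11. Plvap was 0.18 with array weights, 0.43 with the muscle covariate and 0.22 without those libraries, and Robo4 was 0.086 with the muscle covariate. With 1 library left out Pecam1 ran from -0.22 to 0.15 and Cdh5 from -0.42 to 0.17. The difference of Pecam1 was 0.25 (photoreceptor covariate), 0.0035 (muscle covariate), 0.28 (endothelial scaling) and 0.20 (without those libraries). Between genotypes without laser, Pecam1 was 0.20 with array weights and Cdh5 -0.073 with the photoreceptor covariate. With laser, Cdh5 was 0.023 and 0.089, and Plvap 0.16 and 0.21, with array weights and the muscle covariate. Plvap was 0.18 and Pecam1 0.067 without those libraries, and Pecam1 0.020 with the muscle covariate. The cause was not tested. Endothelial scaling moved the median of all genes by -0.25 for laser in wild type, 0.34 for laser in Ceacam1-/-, 0.59 for their difference, and -0.15 and 0.44 between genotypes without and with laser.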
